A study of Homo sapiens with 5 samples.

Results

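The genes described are 10 receptor tyrosine kinases of 3 related families in alveolar rhabdomyosarcoma cells: the fibroblast growth factor receptors FGFR1, FGFR2, FGFR3 and FGFR4, the platelet-derived growth factor receptors PDGFRA and PDGFRB with their relative KIT, and the TAM receptors AXL, TYRO3 and MERTK. They were taken by exact name from the 43714 gene rows of the count files. All 10 were present, and all 10 passed the filter on low counts that left 15859 genes for testing. RNA came from Rh41, a human cell line labelled as alveolar rhabdomyosarcoma of the genotype FP-RMS (fusion-positive). Of the 5 libraries, 3 were from cells transfected for 48 hours with an siRNA against H3F3A, which encodes the histone variant H3.3 (replicates 1, 2 and 3), and 2 from cells transfected in the same way with a scrambled siRNA (replicates 1 and 3). All 5 received Lipofectamine RNAiMAX, and all came from 1 cell line, so the values describe that line only. The labels do not say whether replicates were separate cultures, and p-values therefore set the difference against a spread among libraries that could be technical. RNA was measured in bulk, in which fewer cells with a transcript and less RNA per cell cannot be told apart.

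Receptor tyrosine kinases are cell surface proteins that dimerize on ligand binding, phosphorylate each other and recruit adaptors that feed the RAS-MAPK and PI3K pathways. FGF receptors bind FGFs together with heparan sulphate or a Klotho protein, PDGF receptors bind PDGF dimers, KIT binds stem cell factor, and TAM receptors bind GAS6 and protein S, which bridge them to phosphatidylserine. FGFR4 is a marker of the myogenic lineage, is a known target of the PAX3-FOXO1 fusion protein and is the FGF receptor most studied in fusion-positive rhabdomyosarcoma.

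The stretches upstream of the 4 receptor genes called in the comparison of H3F3A siRNA with scrambled siRNA are shown here to let them be compared. Each holds the 250 bases before the first start listed by RefSeq (GRCh38.p14), written 5′ to 3′ on the gene's own strand, with the GC box GGGCGG in capitals on either strand (CCGCCC where it lies on the other one). FGFR4 (chr5:177086665-177086914, plus strand) had 7 GC boxes and a GC content of 79.6%. AXL (chr19:41218973-41219222, plus strand) had 2 and 64.4%, and PDGFRB (chr5:150155846-150156095, minus strand) had 1 and 58.4%. PDGFRA (chr4:54229043-54229292, plus strand) had none and 46.8%.
FGFR4: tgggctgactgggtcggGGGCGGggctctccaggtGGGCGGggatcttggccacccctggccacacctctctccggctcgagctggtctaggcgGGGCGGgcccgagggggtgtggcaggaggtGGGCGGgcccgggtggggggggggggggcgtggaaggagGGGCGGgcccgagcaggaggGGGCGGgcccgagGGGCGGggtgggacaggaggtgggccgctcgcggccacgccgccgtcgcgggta
AXL: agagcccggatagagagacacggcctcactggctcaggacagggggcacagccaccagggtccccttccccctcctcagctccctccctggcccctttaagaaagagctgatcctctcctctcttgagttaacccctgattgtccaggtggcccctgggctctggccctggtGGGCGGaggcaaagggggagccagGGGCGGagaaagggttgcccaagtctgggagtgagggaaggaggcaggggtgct
PDGFRB: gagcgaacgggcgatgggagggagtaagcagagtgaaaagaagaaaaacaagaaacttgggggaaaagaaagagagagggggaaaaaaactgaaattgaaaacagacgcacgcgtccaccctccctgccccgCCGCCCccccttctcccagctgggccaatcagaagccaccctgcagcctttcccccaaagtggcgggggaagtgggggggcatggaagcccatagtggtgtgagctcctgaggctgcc
PDGFRA: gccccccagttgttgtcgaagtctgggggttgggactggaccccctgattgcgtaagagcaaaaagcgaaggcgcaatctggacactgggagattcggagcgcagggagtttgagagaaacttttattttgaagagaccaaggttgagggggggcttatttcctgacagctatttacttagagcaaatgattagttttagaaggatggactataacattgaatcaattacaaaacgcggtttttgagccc
The 3 genes whose RNA fell had a GC box in this window and the 1 whose RNA rose had none, but 42.19% of 27305 promoter windows of the same length held one, and so did all of the other 5 receptor genes with an entry. FGFR3 had the most, with 8 boxes and a GC content of 86.8%. FGFR4 lay at 79.6%, above 96.4% of all windows, and PDGFRA lay below the median of 57.6%. The uncalled TYRO3, MERTK, FGFR2 and KIT lay at 80%, 78.8%, 78.4% and 76.4%, so that a high GC content was not particular to FGFR4. The E box CANNTG, searched on both strands, was found in the windows of FGFR4, AXL and PDGFRB (1 each) and of PDGFRA (2), and in 62.25% of all windows. The AP-1 site TGANTCA occurred once in the windows of PDGFRA and TYRO3 and in 6.57% of all windows. The letters TATAAA were in none of the windows of the 9 receptor genes and in 11.2% of all.

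The siRNA target was reduced in every H3F3A siRNA library. The row of H3F3A, named H3-3A in the files, held 280, 304 and 264 counts in the H3F3A siRNA libraries, against 8571 and 7983 in the scrambled ones, so that 3.36% of the scrambled mean CPM (counts scaled to the library total by TMM) was left. Its paralogue H3-3B, which encodes the same protein, averaged 819 ± 27.96 CPM with H3F3A siRNA (SD, n = 3) and 821 ± 25.6 CPM with scrambled siRNA (SD, n = 2). Between 28493573 and 30705963 counts per library were assigned to genes. MYOD1, MYOG and DES, which mark rhabdomyosarcoma, averaged 1095, 235 and 675 CPM with H3F3A siRNA and 1340, 239.9 and 835 CPM with scrambled siRNA. The summed level of 10 such markers, of which CHRND fell (adjusted p = 0.0477, edgeR), though not once the GC trend of each library was removed, and TFAP2B rose (adjusted p = 0.00133), was 2857 to 2914 CPM with H3F3A siRNA and 3091 to 3848 CPM with scrambled siRNA, and its part in the values of FGFR4 was not tested. The summed level of 8 endothelial markers was 7.44 to 7.64 CPM with H3F3A siRNA and 8.23 to 8.72 CPM with scrambled siRNA, that of 8 immune markers 5.07 to 5.95 CPM with H3F3A siRNA and 4.98 to 5.97 CPM with scrambled siRNA, and that of 8 epithelial markers 8.82 to 9.72 CPM with H3F3A siRNA and 9.46 to 11.4 CPM with scrambled siRNA. The 8 fibroblast markers summed to 1208 to 1264 CPM with H3F3A siRNA and 1179 to 1299 CPM with scrambled siRNA, nearly all of it COL3A1, and 5 of the 8 were under 1 CPM. COL1A2 had 8.04 to 8.27 CPM with H3F3A siRNA and 9.84 to 9.94 CPM with scrambled siRNA, and COL1A1, the 1 of the 8 that was called, is given beside PDGFRB. In its dependence on GC content, scrambled replicate 1 was unlike the other 4: centred on the 5-library mean of each gene, its log2 CPM changed by 0.15 for each 10 points of GC content of a gene's transcripts, against -0.06, -0.04 and -0.04 in H3F3A siRNA replicates 1, 2 and 3 and -0.01 in scrambled replicate 3. The calls of the 10 receptor genes are therefore also given without it and with each library's GC trend removed.

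Of the 10 receptor genes, FGFR4, PDGFRB and AXL fell and PDGFRA rose after H3F3A siRNA. The calls are at an adjusted p under 0.05 in edgeR's quasi-likelihood test with Benjamini-Hochberg adjustment over all 15859 genes, among which 2.69% fell, 0.504% rose and 3.20% were called in all. Over all genes, the split of calls moved with the scaling, from 427 lower and 80 higher with TMM to 323 and 116 with upper-quartile scaling and 255 and 138 with library totals alone, and under each of these the same 4 receptor genes were called in the same directions. The median log2 fold change was -0.14 over the 10 receptor genes and 0.01 over all genes tested, and with each library's GC trend removed it was -0.01 and 0.00489. The CPM of the 2 groups did not overlap in 7 receptor genes (FGFR2, FGFR3, FGFR4, PDGFRA, PDGFRB, AXL and TYRO3), and in 33.1% of all genes. With each library's GC trend removed, FGFR4 and AXL were still called lower and neither PDGFRB nor PDGFRA passed, while 1.26% of all genes were called lower, 0.536% higher and 1.80% in either direction.

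**Figure D1:**
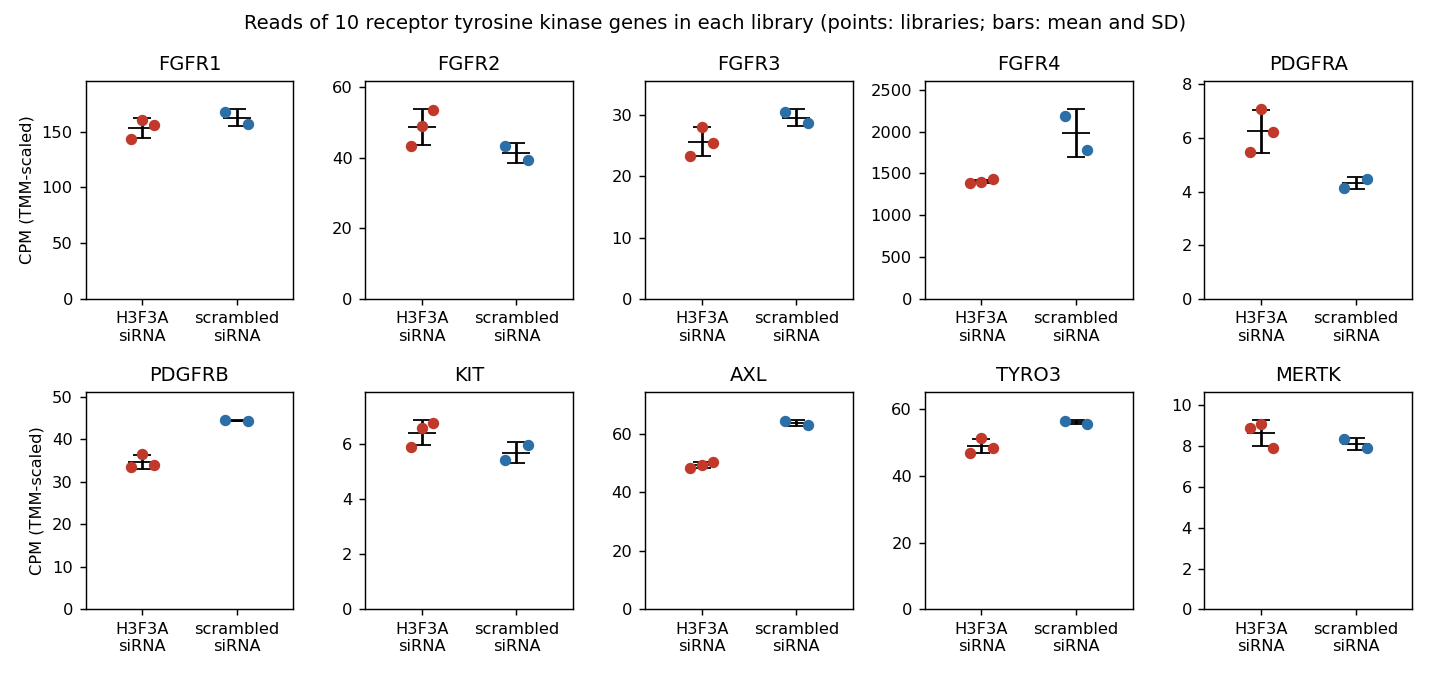
TMM-scaled CPM of the 10 receptor genes in the 3 H3F3A siRNA libraries (red) and the 2 scrambled siRNA libraries (blue); points are libraries in order of replicate number, bars the mean and SD, and each vertical axis starts at 0. The groups are separate in 7 panels, and in the FGFR4 panel the scrambled libraries, at 2184 and 1783 CPM, lie far apart from each other while the H3F3A siRNA libraries lie between 1389.7 and 1428 CPM.

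FGFR4 was the most abundant of the 10 and fell after H3F3A siRNA. It had 41478, 40572 and 44131 counts in H3F3A siRNA replicates 1, 2 and 3, against 63697 and 52950 in scrambled replicates 1 and 3. Scaled to library size, this was 1389.7, 1398 and 1428 CPM with H3F3A siRNA, against 2184 and 1783 CPM with scrambled siRNA. The 3 H3F3A siRNA libraries were close together, both scrambled libraries were higher, and the nearest pair of libraries across the groups differed by 19.9%. The mean of 1405 ± 20.0 CPM with H3F3A siRNA (SD, n = 3) was 70.8% of the mean of 1984 ± 283 CPM with scrambled siRNA (SD, n = 2). The log2 fold change was -0.50 (SE 0.08, 95% interval -0.67 to -0.32, adjusted p = 0.00257 in edgeR's quasi-likelihood test with Benjamini-Hochberg adjustment).

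The size of the fall in FGFR4 depended on scrambled replicate 1. The mean log2 CPM of the H3F3A siRNA libraries was 0.64 below scrambled replicate 1 and 0.34 below scrambled replicate 3, and the scrambled libraries differed from each other by 0.29. Without scrambled replicate 1 the log2 fold change was -0.35 (adjusted p = 0.0328, edgeR with Benjamini-Hochberg adjustment), in a fit with 1 scrambled library, whose spread is assumed to be that of the H3F3A siRNA libraries, and in which 0.623% of genes were called. With the GC trend of each library removed, the 2 scrambled libraries came together, and FGFR4 stood at 1488, 1463 and 1503 CPM with H3F3A siRNA, against 1839 and 1787 CPM with scrambled siRNA. The groups again did not overlap, and the log2 fold change was -0.29 (95% interval -0.40 to -0.18, adjusted p = 0.00886, edgeR). Removing the trend and leaving out scrambled replicate 1 together gave -0.27 with an adjusted p of 0.153, where 0.483% of genes were called.

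The other 3 FGF receptors did not pass the test, and FGFR2 lay on the other side of 0 from FGFR4. FGFR1, the FGF receptor that is broadly expressed in mesenchymal cells, had 144, 161 and 156 CPM with H3F3A siRNA, against 168 and 157 CPM with scrambled siRNA. Its groups overlapped, and its log2 fold change was -0.08 (95% interval -0.24 to 0.08, adjusted p = 0.626, edgeR). FGFR2, an epithelial and mesenchymal receptor with alternative ligand-binding exons, had 43.4, 49.0 and 53.4 CPM with H3F3A siRNA, against 43.3 and 39.2 CPM with scrambled siRNA. The lowest H3F3A siRNA library was only 0.19% above the highest scrambled one, and the log2 fold change was 0.24 (95% interval 0.05 to 0.42, adjusted p = 0.167, edgeR). FGFR3, a receptor best known as a brake on cartilage growth, had 23.4, 28.2 and 25.6 CPM with H3F3A siRNA, against 30.6 and 28.7 CPM with scrambled siRNA. All H3F3A siRNA libraries were below both scrambled ones, by 1.88% at the nearest, and the log2 fold change was -0.21 (95% interval -0.40 to -0.02, adjusted p = 0.245, edgeR). With the GC trends removed it was -0.02 for FGFR3, -0.00185 for FGFR1 and 0.23 for FGFR2.

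Set against its paralogues within each library, which cancels library size, FGFR4 had lower ratios after H3F3A siRNA. For each count of FGFR1 there were 9.67, 8.69 and 9.16 counts of FGFR4 with H3F3A siRNA, against 13.0 and 11.3 with scrambled siRNA. Per count of FGFR2 there were 32.1, 28.5 and 26.7 with H3F3A siRNA, against 50.5 and 45.5 with scrambled siRNA, and per count of FGFR3 59.5, 49.7 and 55.9 with H3F3A siRNA, against 71.4 and 62.1 with scrambled siRNA. In all 3 ratios every H3F3A siRNA library lay below both scrambled libraries. FGFR4 is the upper term of each, and its CPM alone separated the groups, so this does not show a change beyond its own fall. In CPM the groups were separate in 33.1% of all genes, and the share of genes with a separate ratio to FGFR4 was not determined. The differences in log2 ratio, H3F3A siRNA minus scrambled, were -0.41 for FGFR1 (exact two-sided permutation p = 0.1), -0.72 for FGFR2 (exact p = 0.1) and -0.28 for FGFR3 (exact p = 0.2). With 3 libraries against 2, the smallest p this test can give is 0.1. Without scrambled replicate 1 the differences were -0.31, -0.65 and -0.18. Over the 9 ratios of FGFR4 to another of the receptor genes the adjusted exact p ran from 0.15 to 0.4. With the GC trends removed the 3 differences were -0.29, -0.52 and -0.26.

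The ratio of FGFR4 to the TAM and PDGF receptors, into which its own fall also enters, depended on the partner. Per count of PDGFRA there were 254, 198 and 229.8 counts of FGFR4 with H3F3A siRNA, against 526 and 398 with scrambled siRNA, the widest of the 9 differences at -1.02 log2 (exact two-sided permutation p = 0.1). Against KIT, TYRO3 and MERTK the differences were -0.66, -0.29 and -0.58, with separate groups and an exact p of 0.1 each. After removal of the GC trends the differences were -0.74 for PDGFRA, -0.38 for KIT, -0.14 for TYRO3 (exact p = 0.1 each) and -0.35 for MERTK (exact p = 0.2). Without scrambled replicate 1 they were -0.82, -0.45, -0.16 and -0.47, in the same order of genes. Against the 2 other receptors whose RNA fell the groups overlapped. There were 41.5, 38.3 and 42.0 counts of FGFR4 per count of PDGFRB with H3F3A siRNA, against 49.1 and 40.3 with scrambled siRNA, a difference of -0.13 (exact p = 0.4). For AXL there were 28.8, 28.4 and 28.3 with H3F3A siRNA, against 34.0 and 28.4 with scrambled siRNA, a difference of -0.12 (exact p = 0.3), and the value of scrambled replicate 3 fell among those of the H3F3A siRNA libraries. Without scrambled replicate 1 both differences were at 0.01.

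**Figure D2:**
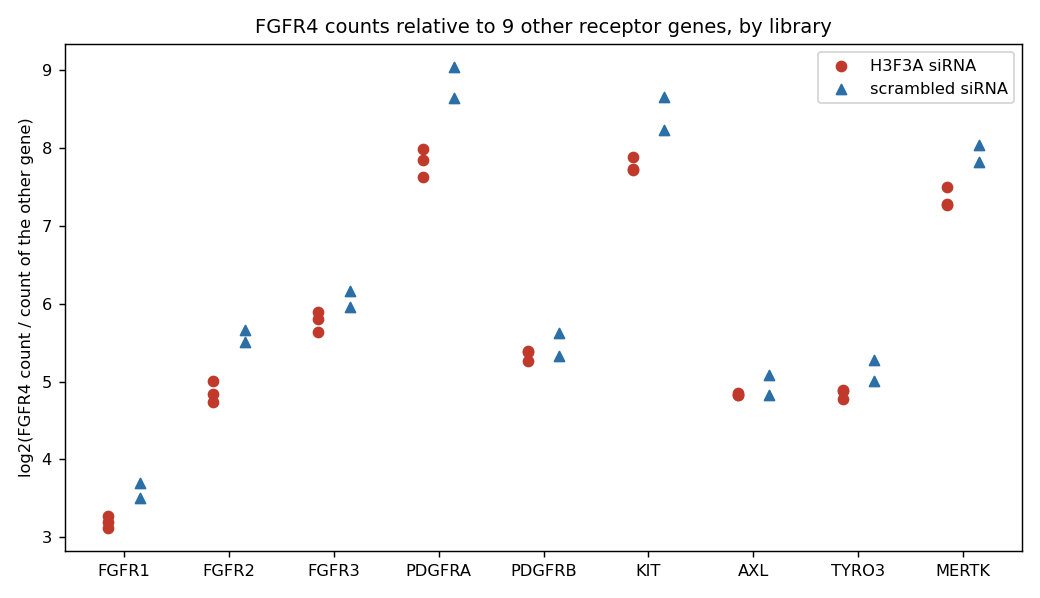
Log2 ratio of FGFR4 counts to the counts of each of 9 other receptor genes, in H3F3A siRNA libraries (red circles) and scrambled siRNA libraries (blue triangles). The circles lie below the triangles for 7 partners, by 1.02 on average for PDGFRA, and overlap them for PDGFRB and AXL. All 9 ratios share FGFR4, whose CPM alone separated the groups.

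FGFR4 made up most of the FGF receptor RNA in all 5 libraries. Of the counts of FGFR1 to FGFR4 it took 86.8%, 85.5% and 85.9% with H3F3A siRNA, against 90.0% and 88.8% with scrambled siRNA. Scaled per transcript length its share was 92.8%, 91.9% and 92.2% with H3F3A siRNA, against 94.6% and 93.9% with scrambled siRNA. On both scales the groups were separate, and FGFR4, whose CPM alone separated them, is part of each share. The summed level of FGFR1, FGFR2 and FGFR3 was 210.4, 238 and 235 CPM with H3F3A siRNA, against 242 and 225 CPM with scrambled siRNA, and overlapped.

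The PDGF receptors moved in opposite directions. PDGFRB, the receptor for PDGF-BB that marks pericytes and fibroblasts, fell. It had 999, 1060 and 1051 counts with H3F3A siRNA, against 1297 and 1315 with scrambled siRNA, which is 33.5, 36.5 and 34.0 CPM with H3F3A siRNA, against 44.5 and 44.3 CPM with scrambled siRNA. The scrambled libraries were nearly equal, the H3F3A siRNA libraries were all lower, and the gap between the nearest libraries was 17.5%. The log2 fold change was -0.36 (SE 0.08, 95% interval -0.52 to -0.19, adjusted p = 0.0162, edgeR with Benjamini-Hochberg adjustment). It was almost the same against each scrambled library alone (-0.36 against replicate 1 and -0.35 against replicate 3). With the GC trends removed it was -0.26 and the adjusted p was 0.0579 (edgeR). The fibroblast marker COL1A1, a collagen chain, had 31.5, 33.0 and 28.7 CPM with H3F3A siRNA, against 44.4 and 35.2 CPM with scrambled siRNA, and also fell (-0.36, adjusted p = 0.0410, edgeR), but not with the GC trends removed (-0.19, adjusted p = 0.226). PDPN was at 0 in 4 of the 5 libraries, and THY1 and LUM were under 0.14 CPM in all. The part of fibroblast-like expression in the fall of PDGFRB was not tested.

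PDGFRA, the receptor of PDGF-AA and a marker of mesenchymal progenitors, was the lowest of the 10 genes per length and rose. It had 163, 205 and 192 counts with H3F3A siRNA, against 121 and 133 with scrambled siRNA. These are small numbers. The 95% Poisson interval, which covers counting error only, was 139 to 190.0 for the lowest H3F3A siRNA library. It was 111 to 158 for the highest scrambled one, so that the intervals of this pair overlapped. In CPM the values were 5.46, 7.06 and 6.21 with H3F3A siRNA, against 4.15 and 4.48 with scrambled siRNA. All H3F3A siRNA libraries were higher than both scrambled ones, by 21.9% at the nearest. The log2 fold change was 0.53 (SE 0.15, 95% interval 0.23 to 0.83, adjusted p = 0.0455, edgeR with Benjamini-Hochberg adjustment). The call did not hold under 10 of 18 alternatives, among them DESeq2 (adjusted p = 0.0775), limma-voom (0.0711) and removal of the GC trends (0.122), while the log2 fold change stayed between 0.36 and 0.62 in all of them.

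KIT, the stem cell factor receptor, belongs to the same receptor family as PDGFRA and PDGFRB. It had 5.90, 6.58 and 6.76 CPM with H3F3A siRNA, against 5.42 and 5.96 CPM with scrambled siRNA. The groups overlapped, and the log2 fold change was 0.17 (95% interval -0.10 to 0.45, adjusted p = 0.540, edgeR). Within the libraries, there were 16.3, 19.3 and 18.3 counts of PDGFRA per 100 of PDGFRB with H3F3A siRNA, against 9.33 and 10.1 with scrambled siRNA, a log2 difference of 0.88. Per 100 counts of KIT there were 92.6, 107 and 91.9 of PDGFRA with H3F3A siRNA, against 76.6 and 75.1 with scrambled siRNA (log2 difference 0.35). Such ratios within a family were set up for 5 pairs after the values had been seen, and are a description with no test. The rise of PDGFRA enters both ratios given here, and the fall of PDGFRB enters the ratio to PDGFRB.

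Of the TAM receptors, AXL fell. AXL, a receptor for GAS6 that is widely studied in migration and drug resistance of tumour cells, had 1441, 1430 and 1557 counts with H3F3A siRNA, against 1876 and 1867 with scrambled siRNA. In CPM these were 48.3, 49.3 and 50.4 with H3F3A siRNA, against 64.3 and 62.9 with scrambled siRNA. Both groups were tight and 19.9% apart at the nearest libraries. The log2 fold change was -0.37 (SE 0.08, 95% interval -0.52 to -0.21, adjusted p = 0.00945, edgeR with Benjamini-Hochberg adjustment), -0.38 against scrambled replicate 1 and -0.35 against replicate 3. With the GC trends removed it was -0.28 (adjusted p = 0.0188). Leaving out scrambled replicate 1 as well gave an adjusted p of 0.0418, with the spread taken from the H3F3A siRNA libraries alone.

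Neither TYRO3 nor MERTK, which is best known for the clearance of dying cells by phagocytes, passed. TYRO3 had 47.0, 51.2 and 48.4 CPM with H3F3A siRNA, against 56.5 and 55.6 CPM with scrambled siRNA. The groups were separate by 7.90%, and the log2 fold change was -0.20 (95% interval -0.36 to -0.04, adjusted p = 0.180, edgeR). MERTK had 8.91, 9.10 and 7.93 CPM with H3F3A siRNA, against 8.33 and 7.91 CPM with scrambled siRNA. These overlapped (log2 fold change 0.09, 95% interval -0.15 to 0.33, adjusted p = 0.756, edgeR). Per 100 counts of MERTK there were 542, 542 and 636 counts of AXL with H3F3A siRNA, against 772 and 794 with scrambled siRNA, a log2 difference of -0.46. Per 100 counts of TYRO3 there were 103, 96.2 and 104 of AXL with H3F3A siRNA, against 114 and 113 with scrambled siRNA, a log2 difference of -0.17. Per 100 counts of FGFR1, counts of FGFR2 were 30.2, 30.5 and 34.3 with H3F3A siRNA, against 25.8 and 24.9 with scrambled siRNA (log2 difference 0.32). AXL and FGFR2, whose CPM alone separated the groups, are the upper terms of these ratios, so their own differences enter them.

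The calls also depended on H3F3A siRNA replicate 1. When it was left out, 0.0958% of all genes were called and none of the 10 receptor genes, with adjusted p-values (edgeR, Benjamini-Hochberg) of 0.0838 for FGFR4, 0.127 for PDGFRA, 0.128 for AXL and 0.159 for PDGFRB. In that setting 4 libraries were compared in place of 5. Its log2 fold changes were -0.49 for FGFR4, 0.62 for PDGFRA, -0.35 for AXL and -0.33 for PDGFRB. With all 5 libraries they were -0.50, 0.53, -0.37 and -0.36. Without H3F3A siRNA replicate 2, where 1.13% of genes were called, FGFR4 (adjusted p = 0.0164, edgeR) and PDGFRB (0.0480) passed, and AXL (0.0609) and PDGFRA (0.222) did not. Without H3F3A siRNA replicate 3, where 1.97% were called, FGFR4 (0.00173) and AXL (0.0299) passed, and PDGFRB (0.0755) and PDGFRA (0.0708) did not. Leaving out either scrambled library leaves 1 in that group, and the p-values then rest on the spread of the H3F3A siRNA libraries alone, so they do not show that a call holds. Without scrambled replicate 1 they were 0.0455 for PDGFRB, 0.0262 for AXL and 0.324 for PDGFRA. Without scrambled replicate 3, 15.1% of all genes were called, and the adjusted p-values ran from 7.55e-06 for FGFR4 to 0.0292 for PDGFRA.

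**Figure D3:**
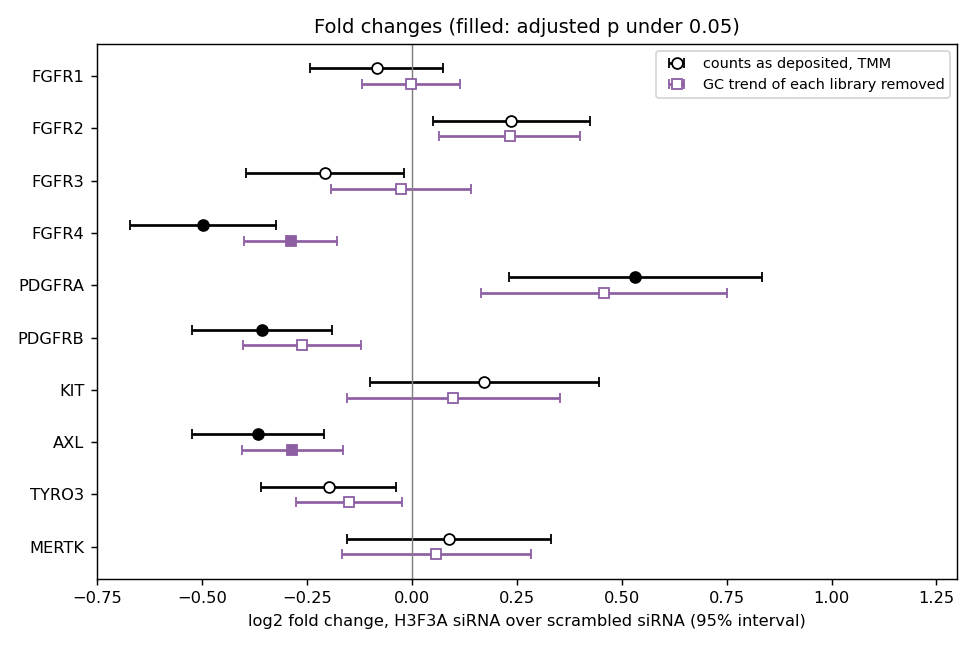
Log2 fold change of each receptor gene, H3F3A siRNA over scrambled siRNA, with its 95% interval, for the counts as deposited (black circles) and with each library's GC trend removed (purple squares); filled symbols have an adjusted p under 0.05. FGFR4 lies at -0.50 and -0.29, AXL at -0.37 and -0.28, and PDGFRB and PDGFRA are filled only for the counts as deposited.

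The fold changes of the 10 genes were read beside the GC content of their transcripts, which moved with the fold changes of all genes. In 10 equal classes of genes by GC content the median log2 fold change went down from 0.11 in the lowest class to -0.23 in the highest, where 14.9% of genes were called lower, against 0.0697% in the lowest. FGFR4 and FGFR3 belong to the highest class, with a GC content of 63.5% and 62.4%. FGFR4 lay 0.27 below the median of that class and only 8.09% of the class was more negative, whereas FGFR3 lay 0.02 above it. PDGFRB (57.6%), AXL (56.7%) and FGFR1 (56.6%) share the eighth class, whose median was -0.09. There PDGFRB lay 0.26 below the median with 7.47% of genes more negative, AXL lay 0.27 below with 7.12% more negative, and FGFR1 lay 0.01 above. TYRO3 (54.4%) lay 0.16 below and FGFR2 (50.1%) 0.24 above the median of its class. PDGFRA and KIT, both with a GC content of 42.6%, share the third class, and lay 0.46 and 0.10 above its median of 0.07. MERTK (47.5%) lay 0.05 above that of its class. The part of GC content in the fold changes was not tested beyond these values and the fit with the trends removed.

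**Figure D4:**
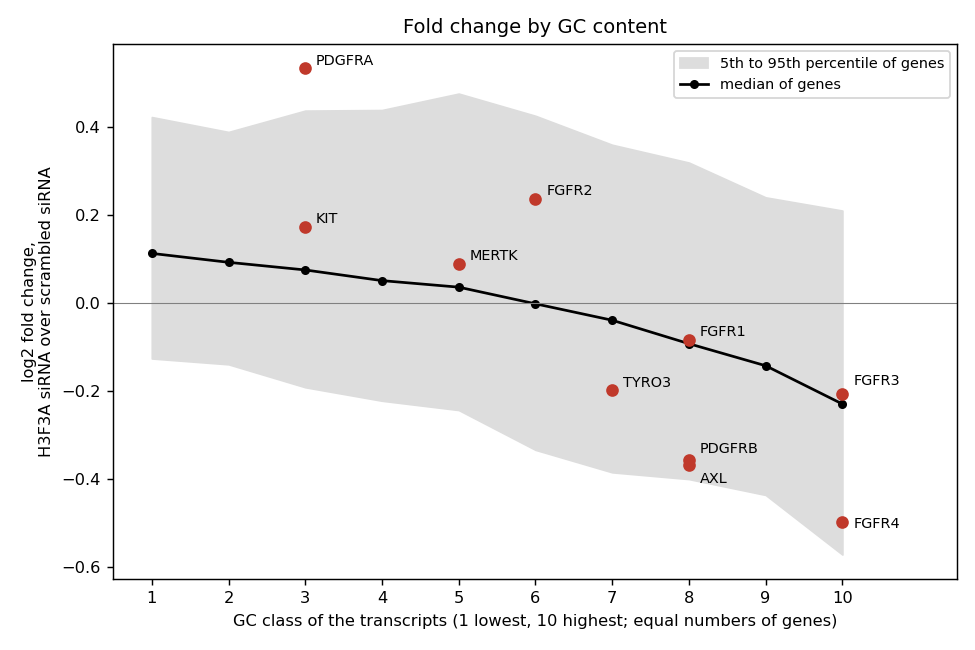
Log2 fold change, H3F3A siRNA over scrambled siRNA, by GC class of the transcripts (1 lowest, 10 highest): median of all genes in the class (line), their 5th to 95th percentile (grey) and the 10 receptor genes (red). The line goes down from 0.11 to -0.23; FGFR4, AXL, PDGFRB and TYRO3 lie below it, FGFR2 and PDGFRA well above it, and FGFR1 and FGFR3 on it.

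Levels of different genes were compared per length, as TPM, which divides counts by the total exon length of each gene. FGFR4 averaged 1326 ± 31.1 TPM with H3F3A siRNA (SD, n = 3) and 1800 ± 173 TPM with scrambled siRNA (SD, n = 2). FGFR1 came next among the 10, with 71.1 ± 5.31 TPM with H3F3A siRNA and 72.5 ± 0.0205 TPM with scrambled siRNA. FGFR4 was thus 19.7, 17.7 and 18.7 times as high as FGFR1 with H3F3A siRNA, against 26.5 and 23.1 times with scrambled siRNA. By their mean over all 5 libraries, AXL followed with 30.4 and 37.8 TPM with H3F3A siRNA and with scrambled siRNA, then FGFR2 (21.9 and 17.9), PDGFRB (18.3 and 22.6), FGFR3 (17.4 and 19.3), TYRO3 (16.4 and 18.1), MERTK (5.94 and 5.38), KIT (3.73 and 3.20) and PDGFRA (2.40 and 1.597). In the H3F3A siRNA libraries the ranges of FGFR2 and PDGFRB, of PDGFRB and FGFR3, and of FGFR3 and TYRO3 overlapped, so that the order of these 4 is not resolved there. In the scrambled libraries FGFR2 was below TYRO3 by its mean, and the 2 overlapped, at 17.6 to 18.2 TPM for FGFR2 and 17.7 to 18.6 TPM for TYRO3. The length of a gene's transcripts moves these levels, and by its longest transcript FGFR2 had 28.1 TPM over all libraries in place of 20.3.

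FGFR4 was also the highest of the 58 listed receptor tyrosine kinases in every library. All 58 were in the files, 46 were tested and 38 had a mean of at least 1 TPM. INSR had 1 count in scrambled replicate 3 and none elsewhere, and DDR1 had 7 to 9 counts per library. Numbered copies of genes, which are separate rows, were not added, so the shares are of these 58 kinases as counted. FGFR4 took 36.1%, 35.0% and 35.4% of their counts with H3F3A siRNA, against 43.3% and 39.4% with scrambled siRNA. Per length its share was 49.1%, 48.2% and 48.3% with H3F3A siRNA, against 55.9% and 52.5% with scrambled siRNA. The groups were separate on both scales, and the fall of FGFR4 itself enters each share. Next per length came EPHA2, an ephrin receptor, with 532 ± 18.8 TPM with H3F3A siRNA and 607 ± 28.2 TPM with scrambled siRNA, then EPHB4 (112 ± 4.15 and 120.2 ± 8.79 TPM) and the pseudokinase PTK7 (99.5 ± 6.64 and 112 ± 0.236 TPM). FGFR4 stood 2.497, 2.56 and 2.42 times above EPHA2 with H3F3A siRNA, against 3.07 and 2.86 times with scrambled siRNA. The summed level of all receptor kinases without FGFR4 was 2456, 2591 and 2604 CPM with H3F3A siRNA, against 2855 and 2739 CPM with scrambled siRNA.

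**Figure D5:**
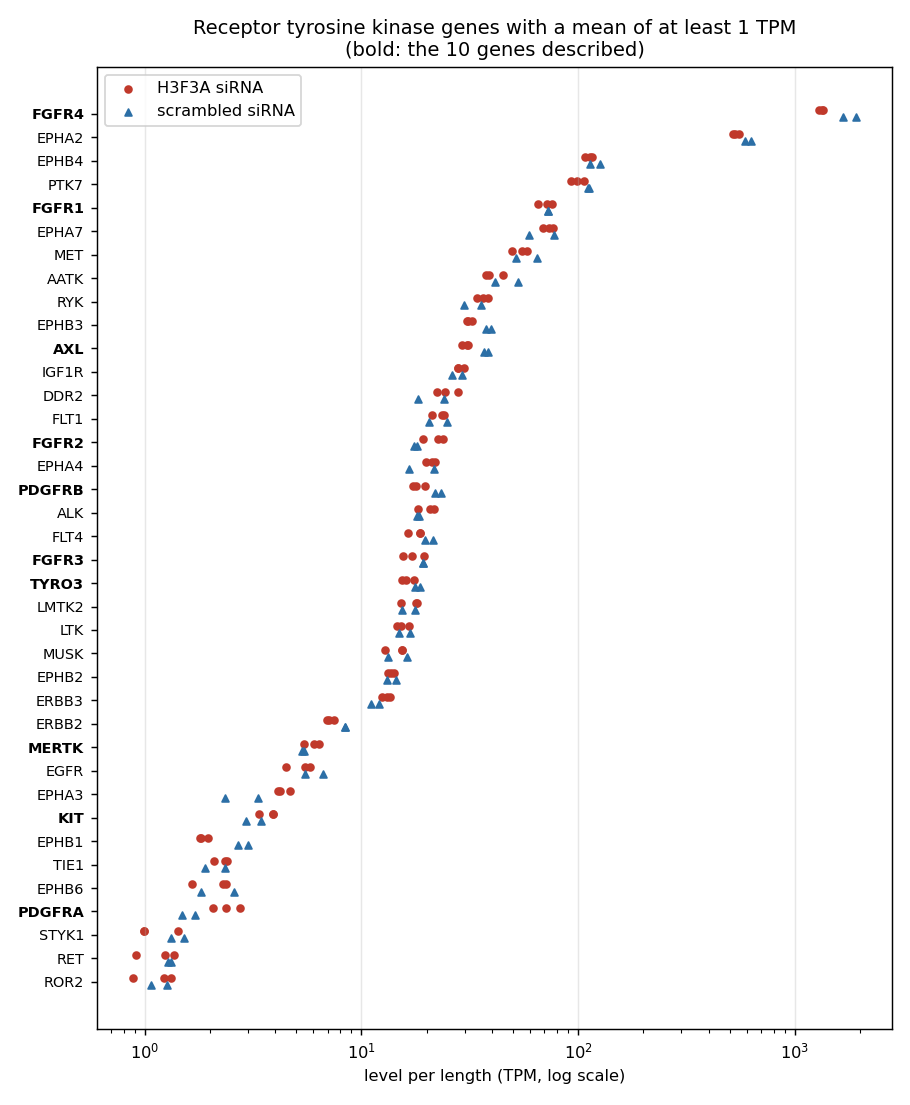
Level per length (TPM, log axis) of the 38 receptor tyrosine kinase genes with a mean of at least 1 TPM, in H3F3A siRNA libraries (red circles) and scrambled siRNA libraries (blue triangles), ordered by mean. FGFR4 is on top in every library, at 1290.3 to 1347 TPM with H3F3A siRNA and 1677 to 1922 TPM with scrambled siRNA, and PDGFRA, between 1.48 and 2.76 TPM, is near the foot.

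Of the 36 tested receptor kinases outside the 10, 2 fell and 1 rose, or 8.33% beside 3.20% of all genes, and their median log2 fold change was -0.08. After removal of the GC trends, where 1.80% of all genes were called, 1 fell and 1 rose, and the median was 0.00299. EPHB1, a receptor of B-type ephrins as is EPHB3, had 3.08, 3.20 and 3.07 CPM with H3F3A siRNA, against 4.83 and 5.05 CPM with scrambled siRNA (log2 fold change -0.66, adjusted p = 0.0160, edgeR; -0.62 and 0.0306 with the GC trends removed). EPHB3 had 44.0, 44.6 and 43.8 CPM with H3F3A siRNA, against 59.7 and 53.2 CPM with scrambled siRNA (-0.36, adjusted p = 0.0157), and its adjusted p was 0.151 with the GC trends removed. EPHA3, which binds ephrin-A ligands, had 10.5, 8.96 and 9.35 CPM with H3F3A siRNA, against 5.59 and 7.38 CPM with scrambled siRNA, and rose (0.57, adjusted p = 0.0194; 0.50 and 0.0425 with the GC trends removed).

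Among the ligands of these receptors, PDGFA and FGF8 fell. PDGFA, which encodes the chain of PDGF-AA, the ligand of PDGFRA, had 145, 164 and 144 CPM with H3F3A siRNA, against 212 and 184 CPM with scrambled siRNA. All H3F3A siRNA libraries were lower (log2 fold change -0.39, 95% interval from -0.56 to -0.22, adjusted p = 0.00969, edgeR), and the call held with the GC trends removed (-0.32, adjusted p = 0.0112). PDGFA was the called ligand of the 6 tested of 7 PDGF, KIT and TAM ligands, or 16.7% beside 3.20% of all genes. PDGFC, KITLG (stem cell factor) and PDGFD averaged 104, 36.5 and 9.41 CPM with H3F3A siRNA and 106, 36.8 and 8.62 CPM with scrambled siRNA. PROS1 (protein S) and GAS6, the TAM ligands, averaged 8.90 and 1.59 CPM with H3F3A siRNA and 9.63 and 1.99 CPM with scrambled siRNA. None of these 5 passed the test.

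Of 22 FGF genes, listed by family name whether or not they encode a receptor ligand, 10 were tested. FGF8 was the 1 called, or 10% beside 3.20% of all genes. FGF8, an FGF of embryonic patterning that binds several receptors including FGFR4, had 37.2, 42.7 and 41.7 CPM with H3F3A siRNA, against 54.1 and 49.9 CPM with scrambled siRNA (log2 fold change -0.36, adjusted p = 0.0193, edgeR). With the GC trends removed it was -0.13 with an adjusted p of 0.426. FGF7, the ligand of the epithelial form of FGFR2, had 64.6, 55.6 and 59.2 CPM with H3F3A siRNA, against 49.6 and 53.0 CPM with scrambled siRNA, and did not pass (0.22, adjusted p = 0.156). FGF2, FGF9, FGF13, FGF18 and FGF22 averaged 12.9, 5.73, 5.84, 1.31 and 1.01 CPM with H3F3A siRNA and 10.98, 5.25, 5.30, 1.19 and 1.64 CPM with scrambled siRNA, and none passed. FGF19, the hormone-like ligand of FGFR4, had 1, 0 and 2 counts with H3F3A siRNA and 0 in both scrambled libraries. Its co-receptor KLB averaged 0.231 CPM with H3F3A siRNA and 0.205 CPM with scrambled siRNA, and KL 0.0679 CPM with H3F3A siRNA and 0.0845 CPM with scrambled siRNA. All 3 were below the filter and were not tested.

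Of 12 proteins that bind or modulate FGF receptors, KL and KLB among them, 7 were tested. FLRT3 rose, so that 14.3% were called, beside 3.20% of all genes. FLRT3, a membrane protein that binds FGF receptors, had 4.82, 5.51 and 6.02 CPM with H3F3A siRNA, against 2.85 and 3.50 CPM with scrambled siRNA (log2 fold change 0.78, adjusted p = 0.00844, edgeR; 0.68 and 0.0260 with the GC trends removed). NCAM1 and FGFRL1, the most abundant of this list, averaged 241 and 115 CPM with H3F3A siRNA and 252 and 132 CPM with scrambled siRNA, and did not pass. Of 18 genes for heparan sulphate synthesis and trimming 17 were tested, and NDST4 fell (5.88% called, beside 3.20% of all genes). NDST4, an N-deacetylase and N-sulphotransferase, had 8.68, 8.82 and 7.70 CPM with H3F3A siRNA, against 11.8 and 14.2 CPM with scrambled siRNA (-0.63, adjusted p = 0.00380). Its value was -0.71 once the trends were removed, with an adjusted p of 0.00129, and EXTL1, a glycosyltransferase at 23.5 ± 1.71 CPM with H3F3A siRNA and 21.3 ± 1.78 CPM with scrambled siRNA, then passed as higher (0.35, adjusted p = 0.0359; 0.481 without that step). With the trends removed 1.80% of all genes were called. The median over these 17 genes was -0.07 without that step.

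Downstream of the receptors, 23 of 24 listed adaptors and effectors were tested. CBLB and PIK3R1 rose, and the median log2 fold change was -0.02. Thus 8.70% of those tested were called, beside 3.20% of all genes, of which 0.504% rose. CBLB, a ubiquitin ligase that acts on activated receptors, had 83.2, 84.0 and 87.9 CPM with H3F3A siRNA, against 64.7 and 68.1 CPM with scrambled siRNA. All H3F3A siRNA libraries were higher (0.36, adjusted p = 0.0115, edgeR; 0.28 and 0.0141 with the GC trends removed). PIK3R1, the regulatory subunit of PI3K, had 36.2, 34.3 and 35.5 CPM with H3F3A siRNA, against 25.8 and 30.2 CPM with scrambled siRNA (0.33, adjusted p = 0.0391), and did not pass with the trends removed (0.0676). FRS2 and GRB2, the core adaptors of FGF receptor signalling, averaged 53.2 and 176 CPM with H3F3A siRNA and 48.3 and 178 CPM with scrambled siRNA, and did not pass.

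Of 13 transcripts that follow FGF-MAPK activity in many tissues (the SPRY, SPRED, DUSP and ETV genes) 12 were tested. Of these 8.33% were called, beside 3.20% of all genes. ETV4, an ETS factor, fell. It had 21.2, 19.0 and 20.7 CPM with H3F3A siRNA, against 26.7 and 25.3 CPM with scrambled siRNA (-0.36, adjusted p = 0.0305, edgeR), and was at -0.22 with an adjusted p of 0.192 with the GC trends removed. The log2 fold change was below 0 in 11 of the 12, against 7713 of 15859 genes tested, with a median of -0.15. DUSP6, a phosphatase of ERK, averaged 54.6 ± 3.78 CPM with H3F3A siRNA and 65.6 ± 0.466 CPM with scrambled siRNA and did not pass (-0.27, adjusted p = 0.0699). With the trends removed, where 1.80% of all genes were called, DUSP6 (-0.29, adjusted p = 0.0259) and SPRED1 (-0.28, adjusted p = 0.0359) passed and ETV4 did not.

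The genes whose pattern over the 5 libraries was most like that of 3 of the receptors were found among genes averaging 8 CPM or more, as those with the smallest root mean square difference in centred log2 CPM. For FGFR4 these were LRFN4, CTSD, STMN3, FHOD1 and SGCA, with differences of 0.03 each, against a median of 0.27 over 9716 genes. Their transcripts had a GC content of 61.3% to 68.7%, beside 63.5% for FGFR4. For AXL they were PDIA6, DAG1, PLAT, BTD and SRF (0.01 to 0.03, median over genes 0.19), with a GC content of 45.9% to 60.9%. For PDGFRA they were TTN, GVQW3, FAT3, LOC151760 and IMPG2 (0.07 to 0.09, median 0.29), so that its nearest genes were less alike than those of FGFR4 or AXL. PDGFRA itself averaged 5.47 CPM, below the 8 CPM asked of the compared genes. The part of counting error in its wider differences was not tested. The 5 points of each pattern share the libraries, their depth and the GC trend of scrambled replicate 1.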

How the data were processed

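Poly-A RNA of 5 Rh41 libraries was measured. Per the labels' protocols, RNA was extracted with TRIzol, captured on poly-T beads and made into NEBNext Ultra libraries, which do not mark strand. CASAVA, bcl2fastq, STAR 2.5, HTSeq 0.6.1, DESeq2 and hg19 are named, without their roles, per the submitters' processing notes. The authors deposited raw gene-level counts, of which the unstranded column was used. The 4 summary lines, which name no gene, were kept out. Of all reads, 4.84% to 5.48% were unmapped, 6.28% to 6.42% mapped to several places, 9.17% to 10.2% lay in no feature and 4.45% to 4.56% were ambiguous. The files hold 4791 numbered copies of genes, none of them of the receptor genes, so the annotation may not be that of plain hg19, and no coordinates were taken from the files.

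Counts were tested with edgeR 4.0.16 (R 4.3.3): filterByExpr with a minimum count of 10 and a minimum total of 15, TMM scaling, a robust quasi-likelihood fit of H3F3A siRNA against scrambled siRNA without covariates, and Benjamini-Hochberg adjustment over 15859 genes with a threshold of 0.05. The biological coefficient of variation was 6.53%. CPM uses TMM library sizes. TPM and GC content come from the GENCODE basic set on GRCh38 (14337 of the tested genes had a GC content), and GC trends were removed by offsets from a lowess of span 0.3. Promoter windows are from a table of RefSeq starts in which 9 of the 10 genes were matched; that of FGFR1 is not used here. Alternatives were DESeq2 1.42.0, limma-voom (limma 3.58.1), other scalings and filters, each library left out, GC correction, a replicate block, added gene copies and summed stranded columns.

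The genes named are the 10 receptor genes, H3F3A, and every called gene of the lists of ligands, modulators, heparan sulphate genes, adaptors, feedback targets and receptor kinases. Also named are ligands and other FGF genes of at least 1 CPM, the 3 next receptor kinases by level and, for 3 receptors, the 5 genes most alike in pattern. DUSP6, SPRED1, EXTL1, FGF19, KL, KLB, NCAM1, FGFRL1, FRS2, GRB2, INSR, DDR1, H3-3B and the cell type markers were added after their values were seen. The receptor genes and all lists were chosen with earlier results of these data known, so counts over them are descriptions.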

Additional observations from a re-analysis of the deposited data

How the results depend on the processing

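Over 18 alternatives no receptor gene changed direction. FGFR4 and AXL were called in 16, PDGFRB in 14, PDGFRA in 8, and FGFR2 and TYRO3 in 1 each. Several alternatives differ little from the main fit, and others rest on 1 scrambled library or on the replicate block. The tally is therefore no measure of how firm a call is. Leaving out each library gave 9 to 1737 genes lower and 6 to 744 higher, and 0 to 3 receptor genes lower and 0 to 1 higher, with the fewest without H3F3A siRNA replicate 1 and the most without scrambled replicate 3. Leaving out a scrambled library leaves 1, which is assumed to vary like the other group. Library totals alone gave 255 lower and 138 higher genes, no filter 153 higher, GC removal 200 lower, and GC removal without scrambled replicate 1 gave 62 lower and 17 higher, with 1 receptor gene lower and 0 higher. The count of receptor genes called higher was 0 with DESeq2, limma-voom, GC removal and the replicate block, in each of which PDGFRA missed the threshold. The block was fitted on the shared numbers 1 and 3. The deviations of same-numbered libraries correlated at 0.21 and 0.07, and no label says that a number marks a shared culture. Under the block PDGFRA had an adjusted p of 0.130 and the other 3 passed. H3F3A siRNA replicate 2 has no scrambled library of its number, so it adds nothing to these fold changes. The spread of each gene then rests only on how the pairs numbered 1 and 3 differ. Calls under the block therefore do not show that a result holds. GC removal with the replicate block, under the same limit, called 807 genes lower and 504 higher, FGFR2 and TYRO3 among them. The log2 ratio of FGFR4 to PDGFRB and to AXL reversed to 0.01 each without scrambled replicate 1 (0.0105 and 0.00701), and ran down to -0.28 and -0.25 with other libraries left out. The share of FGFR4 in receptor kinase RNA was 35.5% with H3F3A siRNA and 41.4% with scrambled siRNA per count, 48.5% and 54.2% per length, and 47.4% and 53.2% per longest transcript, the last added after seeing the data. The causes of these shifts were not tested. Few libraries limit all tests, and low counts limit PDGFRA, KIT and MERTK.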
